A study of Mus musculus with 8 samples.

Results

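The mitochondrial ribosomal proteins were taken as the genes whose mouse symbol is Mrpl or Mrps followed by a number and at most 1 letter, with a mean of at least 1 TPM. TPM divides the reads of a gene by its length and scales each library to a total of 1000000. All 78 rows with such a symbol passed the minimum, out of 55487 genes listed and 11796 genes tested. By symbol, 49 belong to the large subunit (Mrpl) and 29 to the small subunit (Mrps). RNA was sequenced from J774A.1 cells, a mouse macrophage line, after 24 h with LPS (1 μg/mL), the bacterial endotoxin that activates these cells, or with the same dose of LPS together with 1 mM UDCA, a secondary bile acid. There were 4 libraries in each group and both groups carried LPS, so the comparison shows what UDCA changed in activated cells, and an untreated state or UDCA alone was not analysed here. The labels do not say that the libraries of a group came from separate cultures, so the p-values measure the spread between these libraries, which may be technical.

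The mitochondrial ribosome translates the few mRNAs that the mitochondrial genome still encodes, all of them for membrane subunits of the respiratory chain and of ATP synthase. Its ribosomal RNAs are transcribed inside the organelle, whereas every one of its proteins is encoded in the nucleus, made in the cytosol and imported. Many of these proteins have a bacterial ancestor, and the others were added in the mitochondrial lineage. In macrophages, activation by LPS is known to shift metabolism away from respiration.

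The listed TPM of a library summed to 973190 to 977485 with LPS and to 958918 to 962737 with LPS + UDCA, and between 11412 and 11730 genes reached 1 TPM. All 9 macrophage markers had a mean of at least 1 TPM and none of the 12 markers of fibroblasts, epithelium, T cells, B cells and endothelium did. The 12 summed to between 0.0900 and 1.30 TPM in each library. The summed macrophage markers ran from 4240 to 4472 TPM with LPS and from 2081 to 2338 TPM with LPS + UDCA, with Lyz2 and Itgam lower and Adgre1 and Fcgr1 higher, and the part of this shift in the results below was not tested. TPM is a share of each library, so a fall of a gene cannot be told apart from a rise of the other RNAs. Nor can fewer RNA molecules per cell be told apart from fewer cells that hold the RNA, and the read depth is unknown.

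The mitochondrial ribosomal protein genes passed the test about as often as all genes did, but more of them were lower than higher with UDCA, and all changes were under 2-fold. With limma on log2(TPM + 1) and a Benjamini-Hochberg FDR under 0.05 over all genes tested, 20 of the 78 genes were upregulated, 36 were downregulated and 22 did not pass. In all, 71.8% passed, beside 72.5% of all genes tested. By direction, 25.6% were higher and 46.2% lower, whereas 40.2% of all genes tested were higher and 32.3% were lower. Their median log2 fold change of LPS + UDCA over LPS was -0.13, beside 0.082 for all genes tested. A fold change of 2 with the same FDR was reached by 0 of the 78 genes, also at an unadjusted p under 0.05, which 57 of them passed, against 8.71% of all genes higher and 8.44% lower. In 18 genes every LPS + UDCA library was above every LPS library and in 32 every one was below, or 23.1% and 41.03%, beside 37% and 29.9% of all genes tested. The log2 fold changes of the 78 genes spread with an SD of 0.43 around their mean, and their standard errors had a median of 0.054 and ran from 0.029 to 0.18.

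**Figure D1:**
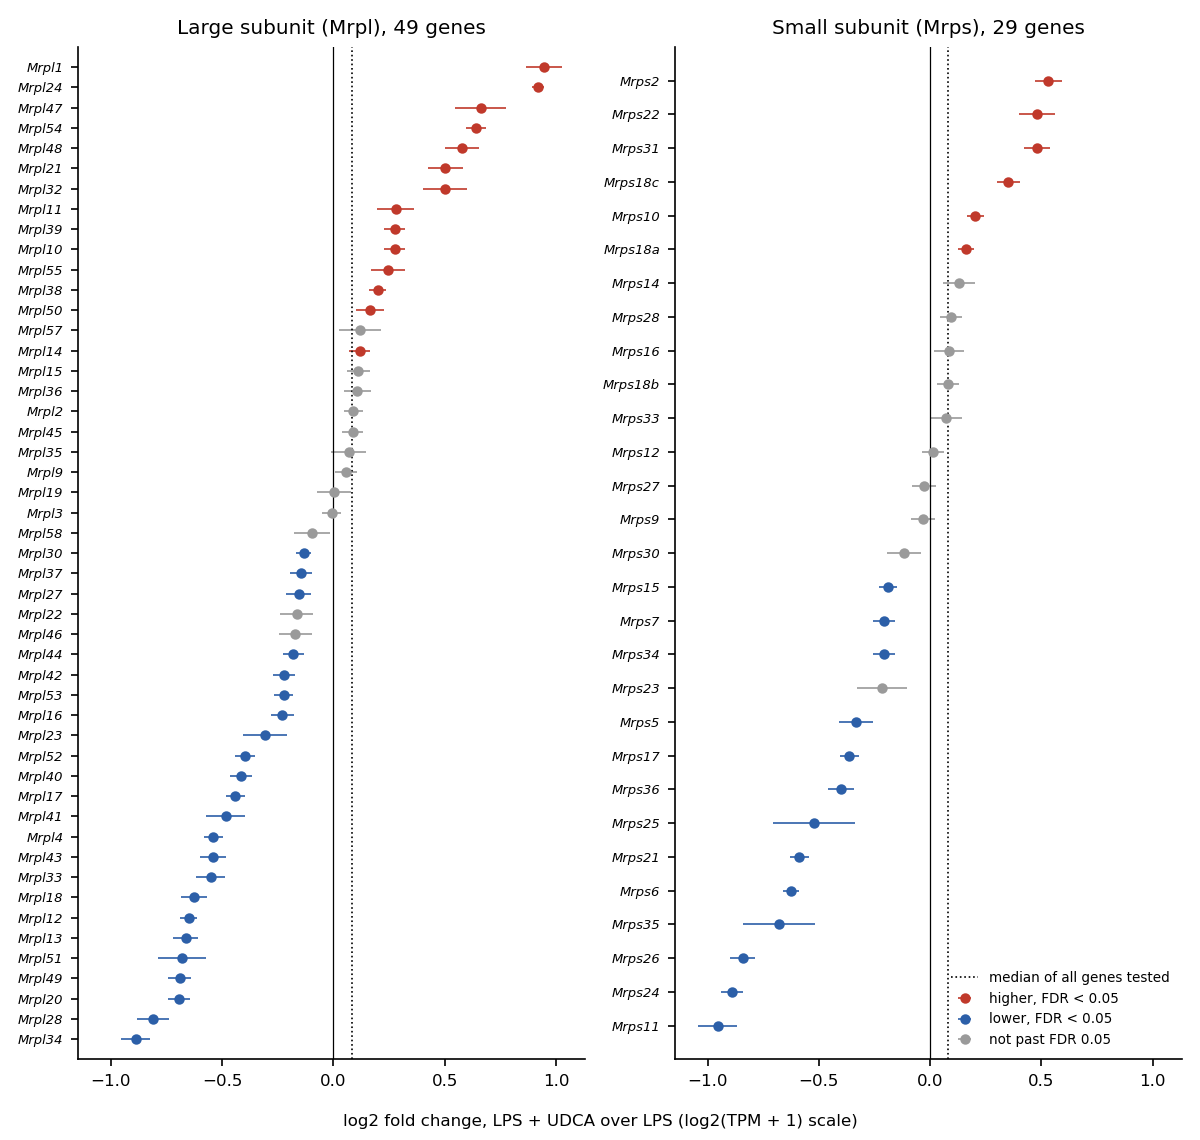
Log2 fold change of LPS + UDCA over LPS (x axis, log2(TPM + 1) scale) for each of the 49 large-subunit and 29 small-subunit genes, with bars for the standard error from limma. Red, blue and gray points are higher, lower and not past an FDR of 0.05, the dotted line is the median of all genes tested (0.082), and the genes run from -0.95 (Mrps11) to 0.95 (Mrpl1).

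Some of the 78 genes are hard to count alone. The library kit does not mark strand, so reads of genes that overlap on opposite strands cannot be told apart. By the GENCODE M21 annotation of GRCm38, 36 of the 78 genes overlap a gene on the opposite strand and 13 one on the same strand. In addition, 11 genes shared at least 25% of their 31-base words with transcripts of other genes. Among the 22 genes with under 5% of shared words and no overlapping gene, 10 were upregulated (45.5%) and 9 downregulated (40.9%). Together 86.4% of the 22 passed, whereas 72.5% of all genes tested did, 40.2% upward and 32.3% downward. The 22 genes had a median of 0.065 on the log2 scale, on the other side of 0 from the 78 genes and close to the 0.082 of all genes tested. Relative to that all-gene median, the 22 genes lay at -0.017 and the 78 genes at -0.21. The restriction to these 22 genes was chosen after seeing the data.

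In the large subunit, 14 of 49 genes were upregulated and 23 downregulated. Mrpl1, a protein of the stalk beside the tRNA exit site, had 16.0, 16.7, 14.7 and 18.6 TPM in LPS replicates 1 to 4 and 30.8, 29.9, 35.7 and 34.3 TPM in LPS + UDCA replicates 1 to 4. Every UDCA library was above every LPS library, and the means were 16.5 ± 1.61 and 32.7 ± 2.78 TPM (SD, n = 4), or 0.95 on the log2 scale (limma, standard error 0.082, adjusted p = 6.8e-06). It lies on chromosome 5 from 96209493 to 96266727 of GRCm38, overlaps no other gene and shared 1.36% of its words. Mrpl24, a protein at the peptide exit, had 138, 142, 142 and 139 TPM with LPS and 268, 263, 271 and 262 TPM with LPS + UDCA. All UDCA libraries were above all LPS libraries, with a log2 fold change of 0.92 and the lowest standard error of the 78 genes, 0.029 (limma, adjusted p = 1.4e-08). Mrpl24 lies on chromosome 3 from 87919506 to 87923672 and overlaps Rrnad1 on the opposite strand, and 27.2% of its words occur in other transcripts, most of them in Rrnad1.

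Mrpl54, which sits at the base of the factor-binding stalk, rose from 102 ± 4.35 to 160.0 ± 7.43 TPM (log2 fold change 0.64). Mrpl47, next to Mrpl24 at the peptide exit, had 12.7, 14.3, 13.9 and 13.3 TPM with LPS and 20.1, 20.3, 19.8 and 28.9 TPM with LPS + UDCA. The groups did not overlap, although 1 of the UDCA libraries stood above the other 3. The log2 fold change of 0.66 became 0.53 without that library. Mrpl47 overlaps Actl6a and Ndufb5 on the opposite strand, and 25.8% of its words occur in other transcripts. Mrpl48, of the central protuberance that contacts the small subunit, rose by 0.58 on the log2 scale, from 25.1 ± 1.98 to 37.9 ± 3.48 TPM. The pseudogene Mrpl48-ps, most of whose words occur in Mrpl48, went the same way, from 13.9 ± 3.83 to 21.6 ± 3.09 TPM.

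On the other side of the large subunit, Mrpl34, one of its smallest bacterial-type proteins, had 45.1, 56.04, 52.2 and 53.1 TPM with LPS and 27.3, 27.98, 26.3 and 27.8 TPM with LPS + UDCA. Every UDCA library was below every LPS library, and limma put the change at -0.89 on the log2 scale (standard error 0.066, adjusted p = 2.3e-06). Mrpl34 shared 0% of its words and overlaps no gene. Mrpl28, also of bacterial type, fell from 84.9 ± 2.09 to 48.2 ± 5.50 TPM (log2 fold change -0.81). Mrpl20, which binds ribosomal RNA early in assembly in bacteria, fell from 170.1 ± 5.21 to 104.9 ± 6.496 TPM (-0.69). The mitochondria-specific Mrpl49 fell from 31.3 ± 1.20 to 19.0 ± 0.919 TPM (-0.69) and Mrpl51 from 44.2 ± 3.86 to 27.3 ± 3.95 TPM (-0.68).

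Other large-subunit genes carry known functions besides structure. Mrpl12, the stalk protein that recruits translation factors and has been described as a partner of the mitochondrial RNA polymerase, had 127, 128, 125 and 128 TPM with LPS and 83.6, 80.9, 75.5 and 82.0 TPM with LPS + UDCA. The groups lay well apart, at -0.65 on the log2 scale (limma, standard error 0.039, adjusted p = 6.2e-07). Mrpl41, also described as a partner of BCL-2, fell from 69.3 ± 8.52 to 48.99 ± 2.26 TPM (-0.48). Mrpl58, which releases peptides from stalled ribosomes, did not pass, with 53.4 ± 3.32 and 50.1 ± 5.57 TPM. Mrpl52 had the highest level of the 78 genes, a mean of 414 TPM over the 8 libraries, and fell from 471 ± 23.0 to 357 ± 15.6 TPM (-0.40). Mrpl50 had the lowest, a mean of 12.2 TPM, with 11.4 ± 0.365 and 13.0 ± 0.887 TPM. Its FDR of 0.038 was lost in 5 of the 8 fits that left out a library, namely LPS replicates 1, 2 and 4 and LPS + UDCA replicates 3 and 4.

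**Figure D2:**
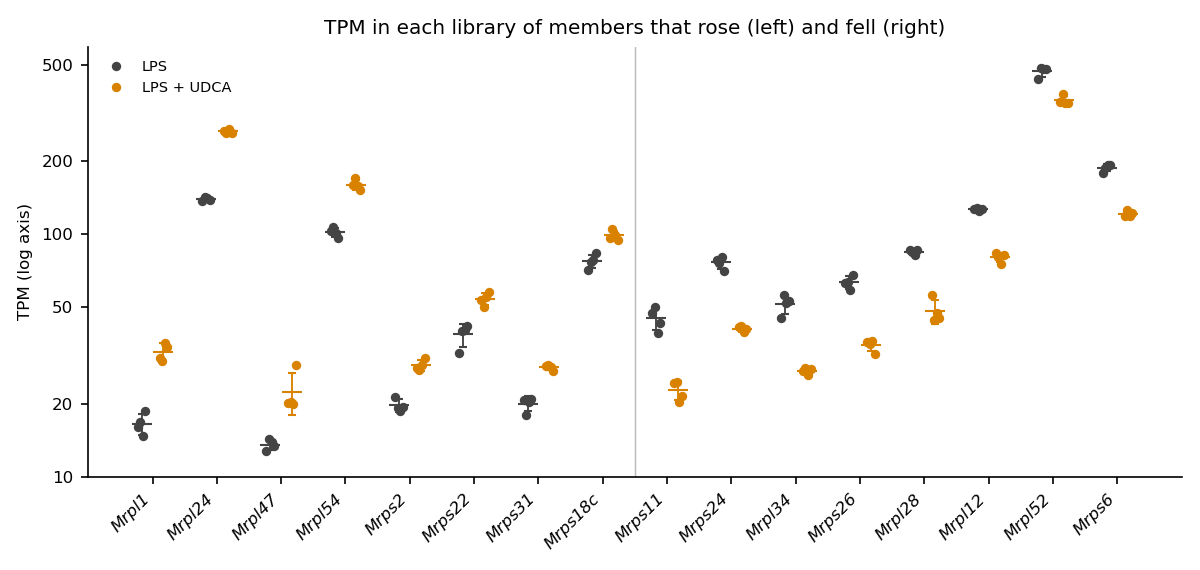
TPM (log axis) of 16 genes in the 4 LPS libraries (gray) and the 4 LPS + UDCA libraries (orange), with a bar at the mean and whiskers for the SD. The 8 genes on the left were upregulated and the 8 on the right downregulated, and the LPS libraries stood apart from the LPS + UDCA libraries in each of the 16.

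In the small subunit, 6 of 29 genes were upregulated and 13 downregulated. Mrps11, a protein of the platform where mRNA leaves, had 47.6, 50.2, 39.3 and 42.9 TPM with LPS and 24.3, 24.6, 20.4 and 21.6 TPM with LPS + UDCA. This was the lowest log2 fold change of the 78 genes, at -0.95 (limma, standard error 0.089, adjusted p = 1.0e-05), with the groups apart. Mrps11, on chromosome 7 from 78783119 to 78792989, overlaps the start of Mrpl46, a large-subunit gene on the opposite strand. Mrpl46 did not pass, with 42.0 ± 3.87 and 37.1 ± 2.44 TPM (log2 fold change -0.17), and the difference between the pair was not tested.

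Mrps24, at the channel where mRNA enters, had 78.6, 76.5, 80.5 and 70.4 TPM with LPS and 41.4, 41.7, 39.4 and 40.5 TPM with LPS + UDCA. The UDCA libraries differed among themselves far less than from the LPS libraries. The change was -0.89 on the log2 scale (limma, standard error 0.049, adjusted p = 3.6e-07). Mrps24 overlaps Urgcp on the same strand, and 16.4% of its words occur in other transcripts, most of them in Urgcp. The mitochondria-specific Mrps26 fell from 63.5 ± 3.72 to 35.0 ± 1.93 TPM (-0.84). Mrps35, likewise absent from bacteria, fell from 27.6 ± 3.41 to 17.2 ± 4.58 TPM (-0.68), where the highest UDCA library (23.6 TPM) lay just under the lowest LPS library (23.9 TPM). Mrps6 fell from 188 ± 6.32 to 122 ± 3.24 TPM (-0.63), and Mrps21, the most abundant small-subunit gene, from 200 ± 7.52 to 133 ± 5.47 TPM (-0.59).

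Among those that rose, Mrps2 had 21.4, 19.2, 18.7 and 19.4 TPM with LPS and 28.1, 27.6, 28.8 and 30.96 TPM with LPS + UDCA. Its groups did not overlap, and its change of 0.53 on the log2 scale (limma, standard error 0.059, adjusted p = 3.2e-05) was the highest in the small subunit. Mrps22, a mitochondria-specific protein whose mutation impairs mitochondrial translation in patients, rose from 38.6 ± 4.22 to 54.0 ± 3.16 TPM (0.48). Mrps31 rose from 19.99 ± 1.42 to 28.2 ± 0.686 TPM (0.48) and Mrps10 from 84.7 ± 2.45 to 97.6 ± 3.45 TPM (0.20). Thus no small-subunit gene rose as far as Mrpl1 or Mrpl24, while both subunits held genes that fell by 0.81 or more on the log2 scale.

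The 3 paralogs that descend from 1 bacterial protein moved unevenly. Mrps18c, which holds the ancestral place in the small subunit, rose from 77.5 ± 5.01 to 99.1 ± 4.26 TPM (0.35 on the log2 scale, limma, adjusted p = 0.00027). Mrps18a, which structures place in the large subunit, rose from 103 ± 1.74 to 115 ± 3.95 TPM (0.16, adjusted p = 0.0027 from limma), a call that median-of-ratios scaling removed (adjusted p = 0.13 from limma). Mrps18b, which lies elsewhere in the small subunit, had 114 ± 5.54 and 120 ± 6.57 TPM (0.079) and did not pass, although it did after quantile normalization (adjusted p = 0.016 from limma). Mrps18c shared 34.5% and Mrps18b 31.6% of their words with other genes.
A pair of Mrps symbols no longer fit their name. Mrps30, which structures assign to the large subunit, did not pass and was the least abundant Mrps gene, with 22.8 ± 1.94 and 20.9 ± 1.69 TPM. Mrps36, now known as a subunit of the 2-oxoglutarate dehydrogenase complex, fell from 64.2 ± 2.31 to 48.5 ± 3.82 TPM (-0.40).

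The comparison of the subunits depended on the measure. The median log2 fold change was -0.13 in the large and -0.12 in the small subunit, a difference of -0.015. Their means were in the opposite order, -0.085 in the large and -0.16 in the small subunit. The SD among genes was 0.45 in the large and 0.41 in the small subunit. The summed TPM of the large subunit was 4038 ± 107 with LPS and 3734 ± 68.1 with LPS + UDCA, and that of the small subunit 1948 ± 23.3 and 1720 ± 28.6. The ranges of both sums did not overlap between the groups. Sums weigh abundant genes most, such as Mrpl52, which fell from 471 to 357 TPM. In the large subunit 14 of 49 genes were upregulated, and in the small subunit 6 of 29. Per library, the mean log2(TPM + 1) of the large minus the small subunit was 0.094, 0.15, 0.13 and 0.16 with LPS and 0.21, 0.21, 0.20 and 0.22 with LPS + UDCA. This mean difference was higher in every UDCA library, by 0.071 between the group means, while the difference of the medians changed sign with quantile normalization (0.059) and without LPS replicate 1 (0.028), LPS replicate 3 (0.021) or LPS + UDCA replicate 3 (0.018). It was also positive, at 0.36, over the 22 genes with few shared words and no overlapping gene, again chosen after seeing the data. Their medians were 0.16 in the large subunit, the value of Mrpl50, and -0.19 in the small subunit, the value of Mrps15. Most of the 22 were large-subunit genes, so the small-subunit median rests on few genes.

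**Figure D3:**
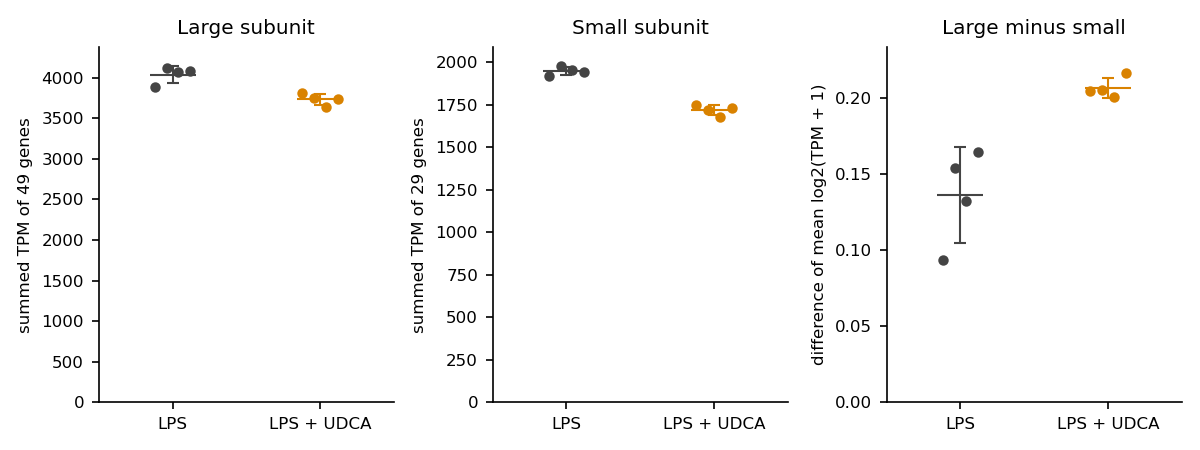
Summed TPM of the 49 large-subunit genes and of the 29 small-subunit genes, and the difference of their mean log2(TPM + 1), in each library, with a bar at the mean and whiskers for the SD. Both sums were lower in every LPS + UDCA library than in every LPS library, and the difference was higher.

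A split by bacterial ribosomal protein family did not separate the directions. Of 46 genes listed under such a family, 12 were upregulated (26.1%) and 21 downregulated (45.7%), and of the other 32, 8 (25%) and 15 (46.9%). Of all genes tested, 40.2% were higher and 32.3% lower. Mrps18a and Mrps18b, although of bacterial descent, were counted with the 32, because only Mrps18c was listed for their family. The medians were -0.020 and -0.16. Mrpl1, Mrpl24, Mrps11, Mrps24 and Mrpl34, which made up both ends of the range, all belong to the 46. By position in the large subunit, the 5 genes of the factor-binding stalk went 3 up (Mrpl10, Mrpl11 and Mrpl54) and 2 down (Mrpl12 and Mrpl53). Of 8 genes at the peptide exit, 3 were upregulated (37.5%), with Mrpl24 and Mrpl47 the highest, and 3 downregulated (37.5%), with Mrpl17 the lowest (-0.44). Of 9 at the central protuberance, 3 were upregulated (33.3%) and 4 downregulated (44.4%), from -0.63 (Mrpl18) to 0.58 (Mrpl48). Genes of 1 place in the particle thus went both ways in each of the 3 places, as all genes tested did.

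Other ribosomal and mitochondrial families gave a measure of scale. Of 77 cytosolic ribosomal protein genes, 17 were upregulated and 30 downregulated with a median of -0.051, and of 78 nuclear-encoded respiratory chain genes, 14 and 48 with a median of -0.20. The SD of the log2 fold changes was 0.17 for the cytosolic ribosome, 0.43 for the mitochondrial ribosome and 0.81 for all genes tested. The cytosolic genes had a median level of 2136 TPM and the mitochondrial ones of 57.5 TPM. No test between the families was made.

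**Figure D4:**
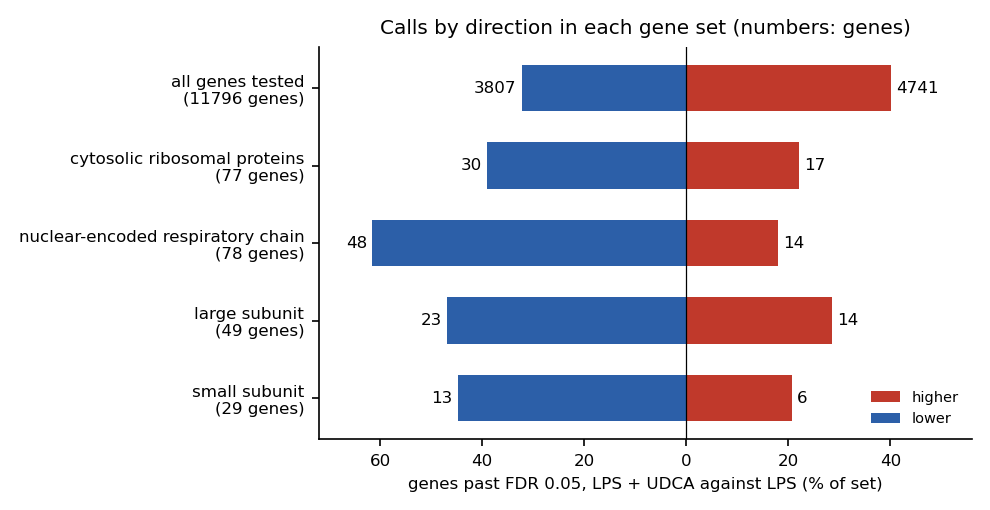
Share of genes (x axis, %) past an FDR of 0.05 in LPS + UDCA against LPS, lower to the left and higher to the right, for all 11796 genes tested, 2 comparison families and the 2 subunits, with the number of genes at each bar. In both subunits the lower side was longer than the higher side, as in both comparison families and unlike all genes tested.

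The genes that complete or serve the ribosome are read against 40.2% of all genes tested higher and 32.3% lower, and the shares in the lists of 10 or more nuclear genes lay near these. All 5 proteins of the particle that carry other names passed. Ptcd3 (log2 fold change 0.29) and Chchd1 (0.18) rose, and Gadd45gip1 (-0.28), Aurkaip1 (-0.23) and Dap3 (-0.097), a GTP-binding small-subunit protein also linked to cell death, fell. Gadd45gip1 shared 40.4% of its words with other transcripts. The call of Dap3 was lost without LPS replicates 1 or 2 and without LPS + UDCA replicates 1 or 4, and under 4 other settings, and that of Chchd1 with median-of-ratios scaling. Of 26 genes for assembly and ribosomal RNA modification, 11 were upregulated (42.3%) and 7 downregulated (26.9%). Mterf3, which is needed for large-subunit assembly, rose from 16.9 ± 2.39 to 31.2 ± 2.81 TPM (0.85), and the GTPases Mtg1 (0.76) and Eral1 (0.75), which act on the large and the small subunit, rose with it. Rbfa, which helps to mature the small-subunit ribosomal RNA, fell from 59.6 ± 2.12 to 31.01 ± 1.25 TPM (-0.92), and 41.2% of its words occur in AC131065.2, which overlaps it on the opposite strand.

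Of 15 translation factors and mRNA-handling proteins, 6 rose and 6 fell, or 40% each. Slirp, which stabilizes mitochondrial mRNAs together with Lrpprc, rose from 20.96 ± 1.67 to 41.2 ± 2.34 TPM (0.94), while Lrpprc itself fell by 0.28 on the log2 scale. Slirp shared 94.1% of its words, most of them with Snw1, and overlaps Snw1 and Alkbh1 on the opposite strand, so its value is uncertain. The elongation factor Tufm, which brings aminoacyl-tRNA to the ribosome, fell from 116 ± 3.72 to 67.9 ± 4.04 TPM (-0.76) and shared 58.2% of its words with Gm9755, whereas Gfm2, which recycles the ribosome, rose from 19.8 ± 0.604 to 37.3 ± 1.13 TPM (0.88). Of 10 tested genes for transcription and replication of mitochondrial DNA, 4 were upregulated and 4 downregulated, again 40% each. The highest was Mterf1a (0.97), which shares sequence with Mterf1b (0.91). Mterf1b holds 30.2% of the words of Mterf1a, and Mterf1a holds 70.9% of those of Mterf1b, so reads could be split between them. The lowest was the helicase Twnk (-0.54), which overlaps Mrpl43 (-0.54) on the opposite strand.

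The ribosomal RNAs of the particle, which the mitochondrial genome encodes, had higher TPM with UDCA. The small-subunit mt-Rnr1 had 438, 374, 362 and 450 TPM with LPS and 699, 767, 735 and 892 TPM when UDCA was added (0.93 on the log2 scale, limma, adjusted p = 1.6e-05). The large-subunit mt-Rnr2 had 91.0, 78.2, 81.6 and 87.2 TPM with LPS and 206, 224, 218 and 258 TPM when UDCA was added (1.41, limma, adjusted p = 2.8e-07). No library of one group reached the range of the other in either RNA. With LPS, mt-Rnr2 averaged 84.5 TPM, beside 4698 TPM for the mRNA mt-Co1. The part of library preparation in the levels of both ribosomal RNAs was not tested. Of the 13 mitochondrial mRNAs that the ribosome reads, 2 rose and 4 fell, from -2.22 (mt-Nd6, from 335 ± 39.9 to 71.4 ± 10.3 TPM) to 0.40 (mt-Nd2, from 281 ± 26.5 to 370 ± 33.8 TPM). The share of words found in other transcripts was 0% for mt-Rnr1, 2.71% for mt-Rnr2, 7.36% for mt-Nd6, which overlaps mt-Nd5 on the opposite strand, and 13.5% for mt-Nd2. It was at least 98.1% for mt-Atp6, mt-Co2, mt-Co3, mt-Nd3 and mt-Nd4l, and mt-Co3 ran from 0.24 to 253 TPM within the LPS libraries alone.

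**Figure D5:**
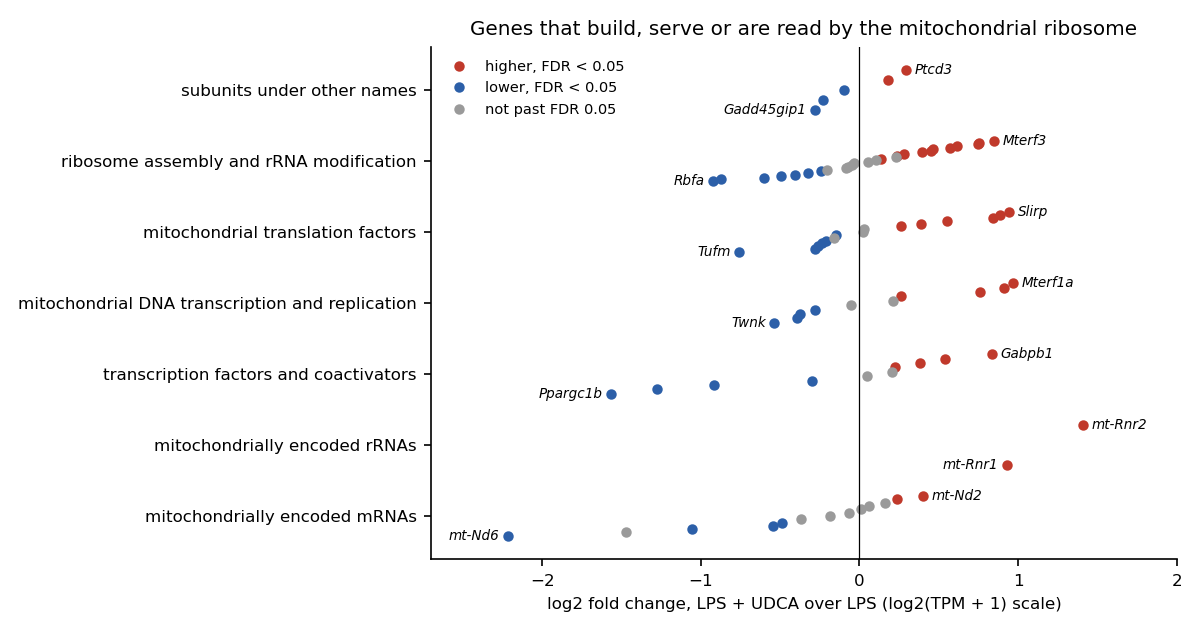
Log2 fold change of LPS + UDCA over LPS (x axis, log2(TPM + 1) scale) for 7 lists of genes around the mitochondrial ribosome, each point a gene, colored by its call at an FDR of 0.05, with the lowest and the highest gene of each list named. Each list but the ribosomal RNAs held both upregulated and downregulated genes.

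Factors known to act on promoters of this class were read from the same fit. Of 10 tested genes, 4 rose and 4 fell (40% each). The coactivator Ppargc1b fell from 3.22 ± 0.609 to 0.413 ± 0.0492 TPM (log2 fold change -1.57), Myc from 69.4 ± 2.02 to 28.1 ± 1.29 TPM (-1.27) and the nuclear receptor Esrra from 44.4 ± 4.22 to 23.1 ± 2.71 TPM (-0.91). Gabpb1 and Gabpa, the partners of the GABP factor, rose by 0.84 and 0.38, Yy1 fell by 0.30 on the log2 scale, and Nrf1 did not pass, with 17.8 ± 1.58 and 18.3 ± 1.13 TPM. Ppargc1a was listed at 0 in every library.

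The promoters were compared with the letters that GABPA, NRF1 and YY1 are known to bind, since the RNAs of all 3 were measured. RefSeq windows of GRCm38.p6, from 250 bases before to 50 bases after a start, were found for 69 of the 78 genes, 75 windows in all because some genes have several starts. On either strand, CCGGAAG (GABPA) was in 26 windows (34.7%), AAGATGGC (YY1) in 12 (16%) and CGCATGCG (NRF1) in 7 (9.33%). Of all 32851 windows, 8.86%, 2.75% and 1.87% held them. The 32851 windows were not limited to the genes tested here, and a comparison with those genes alone was not made. These letters did not overlap each other in the windows. Windows of upregulated genes held CCGGAAG in 5 of 21 cases, those of downregulated genes in 11 of 32 and those of the others in 10 of 22. In the same order, CGCATGCG was in 3, 1 and 3 windows and AAGATGGC in 2, 6 and 4. A match describes the letters and is not evidence of binding. The largest riser and the lowest large-subunit gene are shown from 250 bases before the RefSeq start to 30 bases after it, with motif letters in capitals, to compare a window without and with a match. Mrpl1 held none of the 3 motifs and Mrpl34 held CCGGAAG from base -37. The Mrpl1 window begins downstream of the GENCODE start of the gene and does not cover the bases before it, so the absence holds for this window only.
Mrpl1, chr5:96209865-96210144, plus strand: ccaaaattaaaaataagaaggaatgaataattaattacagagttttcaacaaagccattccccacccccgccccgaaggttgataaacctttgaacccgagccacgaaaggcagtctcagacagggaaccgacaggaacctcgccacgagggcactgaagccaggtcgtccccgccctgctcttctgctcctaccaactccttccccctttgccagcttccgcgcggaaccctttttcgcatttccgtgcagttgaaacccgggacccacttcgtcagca
Mrpl34, chr8:71464676-71464955, plus strand: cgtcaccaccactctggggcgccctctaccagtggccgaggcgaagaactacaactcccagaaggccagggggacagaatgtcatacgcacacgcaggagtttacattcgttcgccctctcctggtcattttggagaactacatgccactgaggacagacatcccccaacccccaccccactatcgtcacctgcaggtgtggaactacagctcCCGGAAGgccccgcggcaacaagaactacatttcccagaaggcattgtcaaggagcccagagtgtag

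Several of these promoters lie between a pair of genes that are read in opposite directions. Within 1000 bases of the start, 20 of the 78 genes had a gene that begins on the other strand and reads away from them, at distances of 3 to 935 bases, and 18 of these neighbors were tested. Both genes passed in 9 pairs, of which 5 moved in the same direction and 4 in opposite directions. Of all genes tested, 72.5% passed, 40.2% higher and 32.3% lower, and other pairs of genes were not compared. Mrpl32 and the proteasome gene Psma2, whose starts are 75 bases apart, rose alike, with log2 fold changes of 0.50 and 0.51. Mrpl32 had 30.8, 32.5, 36.1 and 38.8 TPM with LPS and 52.8, 46.2, 42.6 and 55.9 TPM with LPS + UDCA, and Psma2 rose from 78.8 ± 2.35 to 113 ± 7.09 TPM. In contrast, Mrps18c rose by 0.35 while Helq, a DNA helicase gene 29 bases away, fell from 7.48 ± 1.67 to 4.67 ± 1.17 TPM (-0.58).

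Mitotic genes flank 2 large-subunit genes. Ncapd2, a condensin gene that starts 100 bases from Mrpl51, fell from 52.4 ± 1.92 to 9.18 ± 0.583 TPM, a log2 fold change of -2.39 beside -0.68 for Mrpl51. Ska3, a kinetochore gene 49 bases from Mrpl57, fell from 9.95 ± 0.469 to 1.16 ± 0.277 TPM (-2.35). Mrpl57 did not pass, with 89.1 ± 6.19 and 97.3 ± 12.5 TPM (0.12). The difference within a pair was not tested. The windows of these 4 genes are shown, again to 30 bases after the RefSeq start, because each gene belongs to such a pair. The distances between starts are from GENCODE M21, and the RefSeq starts used for the windows differ from them. They lie 5 bases downstream of the GENCODE start in Mrpl57, 128 in Mrpl32, 132 in Mrps18c and 399 in Mrpl51, as well as 622 in Mrpl1, and 33 bases upstream in Mrpl34. The windows of Mrpl51 and Mrpl1 thus begin downstream of the GENCODE start and do not cover the bases before it. The Mrpl51 window holds none of the stretch between the GENCODE starts of Mrpl51 and Ncapd2. Bases are counted from the RefSeq start, negative before it. Mrpl32 held AAGATGGC on the opposite strand from base -242 and CGCATGCG from bases -86 and -23, Mrps18c held CCGGAAG on the opposite strand from base -156, and Mrpl51 and Mrpl57 held it from bases -90 and 5.
Mrpl32, chr13:14613008-14613287, minus strand: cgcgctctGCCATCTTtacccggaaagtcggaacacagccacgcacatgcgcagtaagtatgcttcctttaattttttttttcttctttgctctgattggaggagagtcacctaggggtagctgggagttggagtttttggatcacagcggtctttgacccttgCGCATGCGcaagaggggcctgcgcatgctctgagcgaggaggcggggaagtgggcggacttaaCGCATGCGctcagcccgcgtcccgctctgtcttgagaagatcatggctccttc
Mrps18c, chr5:100798509-100798788, plus strand: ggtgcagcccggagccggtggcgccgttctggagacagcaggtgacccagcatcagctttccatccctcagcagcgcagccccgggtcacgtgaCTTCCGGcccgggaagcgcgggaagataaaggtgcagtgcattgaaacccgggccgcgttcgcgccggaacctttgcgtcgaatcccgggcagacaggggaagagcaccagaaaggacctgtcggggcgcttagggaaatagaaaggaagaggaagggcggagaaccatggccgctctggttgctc
Mrpl51, chr6:125191950-125192229, plus strand: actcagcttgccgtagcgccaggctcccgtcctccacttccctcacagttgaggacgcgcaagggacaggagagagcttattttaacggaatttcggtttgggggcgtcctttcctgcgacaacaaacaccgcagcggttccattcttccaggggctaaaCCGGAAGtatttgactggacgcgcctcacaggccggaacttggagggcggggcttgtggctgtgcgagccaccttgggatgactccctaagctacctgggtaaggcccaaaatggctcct
Mrpl57, chr14:57825989-57826268, plus strand: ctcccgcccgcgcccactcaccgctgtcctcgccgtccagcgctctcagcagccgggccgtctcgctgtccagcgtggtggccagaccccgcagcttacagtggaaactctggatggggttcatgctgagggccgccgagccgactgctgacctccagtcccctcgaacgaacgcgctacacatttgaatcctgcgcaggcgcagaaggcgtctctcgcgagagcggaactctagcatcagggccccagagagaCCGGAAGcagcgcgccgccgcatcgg

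Some levels could also carry reads of a copy. Mrpl23 fell from 24.1 ± 2.54 to 19.3 ± 2.32 TPM (log2 fold change -0.31), with 1 UDCA library inside the LPS range, a call that was lost without LPS + UDCA replicate 3. Its pseudogene Mrpl23-ps1, 95.6% of whose words occur in other transcripts and nearly all of them in Mrpl23, rose from 161 ± 6.92 to 241 ± 4.36 TPM (0.58). The pseudogene was listed well above the gene in every library, and how reads were divided between the pair is not given in the sources used here. The highest share of words found in other transcripts among the 78 genes was 84.4%, in Mrpl53 (-0.22), followed by 73.8% in Mrps34 (-0.21) and 68.9% in Mrps25 (-0.52). Across the 78 genes, which are not independent of each other, the log2 fold change had a Spearman correlation of 0.094 with the longest annotated transcript and of -0.17 with its GC content. Over the 11765 tested genes with an annotation the values were 0.12 and -0.27.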

How the data were processed

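RNA of J774A.1 cells was prepared with an Illumina TruSeq RNA kit per the labels. The authors deposited TPM per gene for 8 libraries, kept to 2 decimals. The unit was inferred from the values. The submitters' processing notes name Bowtie 0.12.2, mm10 and GRCm38, without their role; the counting program is not given in the sources used here. The study's methods describe UDCA with or without LPS, whereas the labels, followed here, compare LPS with LPS + UDCA.

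Genes averaging 1 TPM or more (11796) were fitted as log2(TPM + 1) by lmFit and eBayes with a trend (limma 3.58.1, R 4.3.3), and p-values were adjusted by Benjamini-Hochberg over all of them. Fold changes are on the log2(TPM + 1) scale, which understates the change of low genes. The members, lists and motifs were chosen with earlier results of these data known. Lists are described by counts and medians, without a test. Genes were named by a rule: in each subunit the 5 highest and 5 lowest log2 fold changes and the highest and lowest TPM, 8 genes of known role, every subunit under another name and both ribosomal RNAs, and the highest and lowest called gene of each other list. Others were named after their values were seen.

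Positions, overlaps and shared words of 31 bases are from GENCODE M21 (GRCm38), which holds 55141 of the 55487 identifiers, and promoter windows from RefSeq GRCm38.p6. Alternatives changed scaling, pseudocount, filter, trend, replicate block, FDR, subunit assignment and the libraries left out. The fit was tested on simulated data. Tables were made in Python 3.11.15 with pandas 2.3.3 and plots with matplotlib 3.10.9.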

Additional observations from a re-analysis of the deposited data

Results flagged for a closer look

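Within a group of 4 libraries, 6 of 94 groups (47 named genes) held a library far from the other 3 by Dixon's ratio, where chance gives about 1 in 20, or 4.7. In LPS replicate 1, Mrpl20 (162 TPM, the others 172 to 173) and Mrpl52 (437 TPM, the others 481 to 484) were low. In LPS + UDCA replicate 2, Mrpl52 was high (380 TPM, the others 348 to 350) and Mrps10 low (92.5 TPM, the others 99.2 to 99.5). Mrpl47 was high in LPS + UDCA replicate 4 (28.9 TPM, the others 19.8 to 20.3), and Slirp was low in LPS + UDCA replicate 1 (37.7 TPM, the others 42.2 to 42.5). Each of these 5 genes kept its call without any 1 library.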

How the results depend on the processing

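Of the 56 calls at an FDR of 0.05, 46 (15 higher and 31 lower) held under each of the 17 other fits, and 0 changed direction in any. The calls of Mrps25, Mrpl23, Mrpl27, Mrpl37, Mrpl30, Mrpl14, Mrps18a, Mrpl50, Mrpl55 and Mrpl11 were lost in at least 1. Among 798 values of the 47 named genes, 777 kept their side of the threshold, 20 lost it, 1 gained it and 0 reversed. With median-of-ratios scaling the median log2 fold change was -0.20 for all 78 genes, -0.21 for the large and -0.19 for the small subunit, and 1 gene passed 2-fold lower; the median of all genes tested was then 0.010. Quantile normalization gave -0.086 for the 78 genes and -0.086 for the large subunit, a difference between the subunits of 0.059 and 1 gene past 2-fold higher. The 22 genes with few shared words and no overlap, chosen after seeing the data, gave a median of 0.065, beside 0.082 for all genes tested. They gave 0.16 for the large subunit (the value of Mrpl50) and -0.19 for the small (that of Mrps15), a difference of 0.36. An FDR of 0.01 left 16 genes higher and 32 lower, and assignment by structure moved each subunit's counts by at most 1. The cause of these shifts was not tested. Leaving out each library in turn gave 17 to 21 genes higher and 32 to 37 lower, 0 to 1 past 2-fold in either direction, medians of -0.14 to -0.11 (all), -0.14 to -0.11 (large) and -0.15 to -0.065 (small), and a difference of -0.073 to 0.028. Same-numbered libraries of the groups correlated by -0.035 to 0.15 in their deviations and differently numbered ones by -0.14 to 0.16, so the numbers were not taken as pairs; with the replicate block, 18 genes were higher and 37 lower, and the median was -0.13. TPM keeps no depth, so small changes of genes near 12 TPM, such as Mrpl50, rest on 4 libraries a group alone.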
